A study of Mus musculus with 12 samples.

Results

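The presynaptic active zone scaffold genes were followed in the cerebral cortex and hippocampus of mice lacking telomerase reverse transcriptase. The 9 members are Bsn, Pclo, Rims1, Rims2, Erc1, Erc2, Unc13a, Unc13b and Rimbp2, taken by name from the 55487 gene rows of the deposited tables after the Ensembl identifiers had been matched to GENCODE M21 on the mouse build GRCm38. The rule uses no measured value, but the members were chosen with earlier results of these data known. All 9 were found and passed the filter on low values in both tissues. RNA sequencing of total RNA extracted with Trizol gave 12 libraries in 4 groups of 3, all from C57BL/6 mice: hippocampus and cortex of mTert KO mice, called knockout, and hippocampus and cortex of mTert WT mice, called wild type. The sample titles label the knockout G1, and the deposited data name it KO G1 Homo, read here as homozygous. The labels give neither the age and sex of the mice, nor the number of animals behind each library, nor the way the allele was made, so p-values measure the spread between these libraries, which may be technical in part.

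The active zone is the patch of presynaptic membrane where synaptic vesicles dock, are primed and fuse when calcium enters. Its scaffold is built from a few families of large proteins: Bassoon and Piccolo span the release site, RIM proteins bind vesicle Rab3, Munc13 and calcium channels, ELKS proteins bind RIM and Piccolo, RIM-binding proteins tie RIM to the calcium channels, and Munc13 proteins open syntaxin for SNARE assembly. In cortex and hippocampus these proteins are made by neurons, and their transcripts are long. Each gene is given with its exonic length, the length of all its annotated exons merged.

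Library size, the targeted gene and the markers came first. Taking the smallest step of the values as 1 read, the libraries held 72401909 to 86639113 reads in hippocampus and 68424934 to 77972013 in cortex, and no member was below 2965 normalized counts in any library, so counting error was small for all of them. Tert was listed at 0, 6.31 and 0 normalized counts in knockout hippocampus and at 147, 184 and 128 in wild-type hippocampus. In cortex it was listed at 0 in all 3 knockout libraries and at 206, 105 and 241 in wild type. Wild-type cortex library 2 stood apart from its group: the chi-square of the reads per gene was 91.7 and 84.8 against wild-type cortex libraries 1 and 3, which differed from each other by 8.86. Counts of called genes in cortex by the main limma fit are therefore given with and without it. In hippocampus, wild-type libraries 1 and 2 differed by 44.2, and library 3 differed from them by 14.2 and 18.6. Knockout hippocampus pairs differed by 10.2 to 14.4. Within its group, wild-type hippocampus library 1 was the lowest for 8 of the 9 members and library 2 the highest for 7. None of the 9 marker lists examined had a gene at 0 in every library, and the neuronal, cortical and hippocampal markers were present in their tissues.

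Promoters of the 4 members with the largest hippocampal falls are shown to place these genes in the genome before their values. They are RefSeq sequence of GRCm38.p6, 5′ to 3′ on the gene's strand, and hold only bases upstream of the annotated starts. Capitals mark GGGCGG or its reverse complement CCGCCC, the core of a GC box, and CGCATGCG, the core of the NRF1 motif, which reads the same on both strands.
Bsn promoter, chr9:108190385-108190633, minus strand: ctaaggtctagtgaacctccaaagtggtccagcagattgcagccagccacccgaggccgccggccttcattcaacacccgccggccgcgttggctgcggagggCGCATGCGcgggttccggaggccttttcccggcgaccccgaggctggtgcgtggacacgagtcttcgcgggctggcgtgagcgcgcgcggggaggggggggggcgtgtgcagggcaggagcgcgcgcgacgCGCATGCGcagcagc
Pclo promoter, chr5:14514668-14514917, plus strand: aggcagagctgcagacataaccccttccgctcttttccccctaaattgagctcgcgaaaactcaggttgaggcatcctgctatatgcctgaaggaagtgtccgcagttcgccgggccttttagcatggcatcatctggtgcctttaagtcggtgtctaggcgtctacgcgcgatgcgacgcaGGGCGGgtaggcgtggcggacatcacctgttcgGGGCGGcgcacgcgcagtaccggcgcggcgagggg
Erc1 promoter, chr6:119848168-119848400, minus strand: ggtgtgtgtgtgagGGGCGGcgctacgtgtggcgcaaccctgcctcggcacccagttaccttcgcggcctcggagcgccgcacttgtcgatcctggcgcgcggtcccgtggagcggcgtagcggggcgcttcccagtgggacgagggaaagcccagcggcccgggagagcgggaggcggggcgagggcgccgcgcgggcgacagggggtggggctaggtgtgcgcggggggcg
Unc13b promoter, chr4:43058703-43058952, plus strand: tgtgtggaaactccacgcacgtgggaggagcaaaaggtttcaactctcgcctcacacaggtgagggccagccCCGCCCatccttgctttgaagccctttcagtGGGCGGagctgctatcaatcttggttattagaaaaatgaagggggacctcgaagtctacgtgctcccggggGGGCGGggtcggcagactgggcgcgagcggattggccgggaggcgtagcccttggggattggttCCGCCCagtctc

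Promoter sequence was matched for 8 of the 9 members, Rims2 being the exception. A GC box core lay in 5 of the 8 (Pclo, Rims1, Erc1, Unc13a and Unc13b), against 32.7% of the 32851 promoters in the table. An NRF1 core lay in the Bsn promoter, with 2 matches, and in 1.55% of all promoters. The cyclic AMP response element TGACGTCA and the TATA motif TATAAA, searched on both strands, had 0 matches among the 8 and lay in 1.55% and 12.4% of all promoters. The member windows were 233 to 250 bases long, since bases past an annotated start were left out. A match is a description of letters and not a binding site.

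In hippocampus, 7 of the 9 scaffold genes fell in knockout and 0 rose (limma on log2 of the normalized count plus 1, Benjamini-Hochberg adjusted p below 0.05 over 22337 genes). The background in this comparison was high: 29.2% of all genes tested were called, 15.1% lower and 14.1% higher. The median log2 fold change was -0.33 over the members and 0.02 over all genes tested. The 7 genes that fell had knockout libraries all below every wild-type library, which was the case for 21.5% of all genes tested. In tissue RNA, fewer cells that make a transcript and less transcript per cell cannot be told apart.

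**Figure D1:**
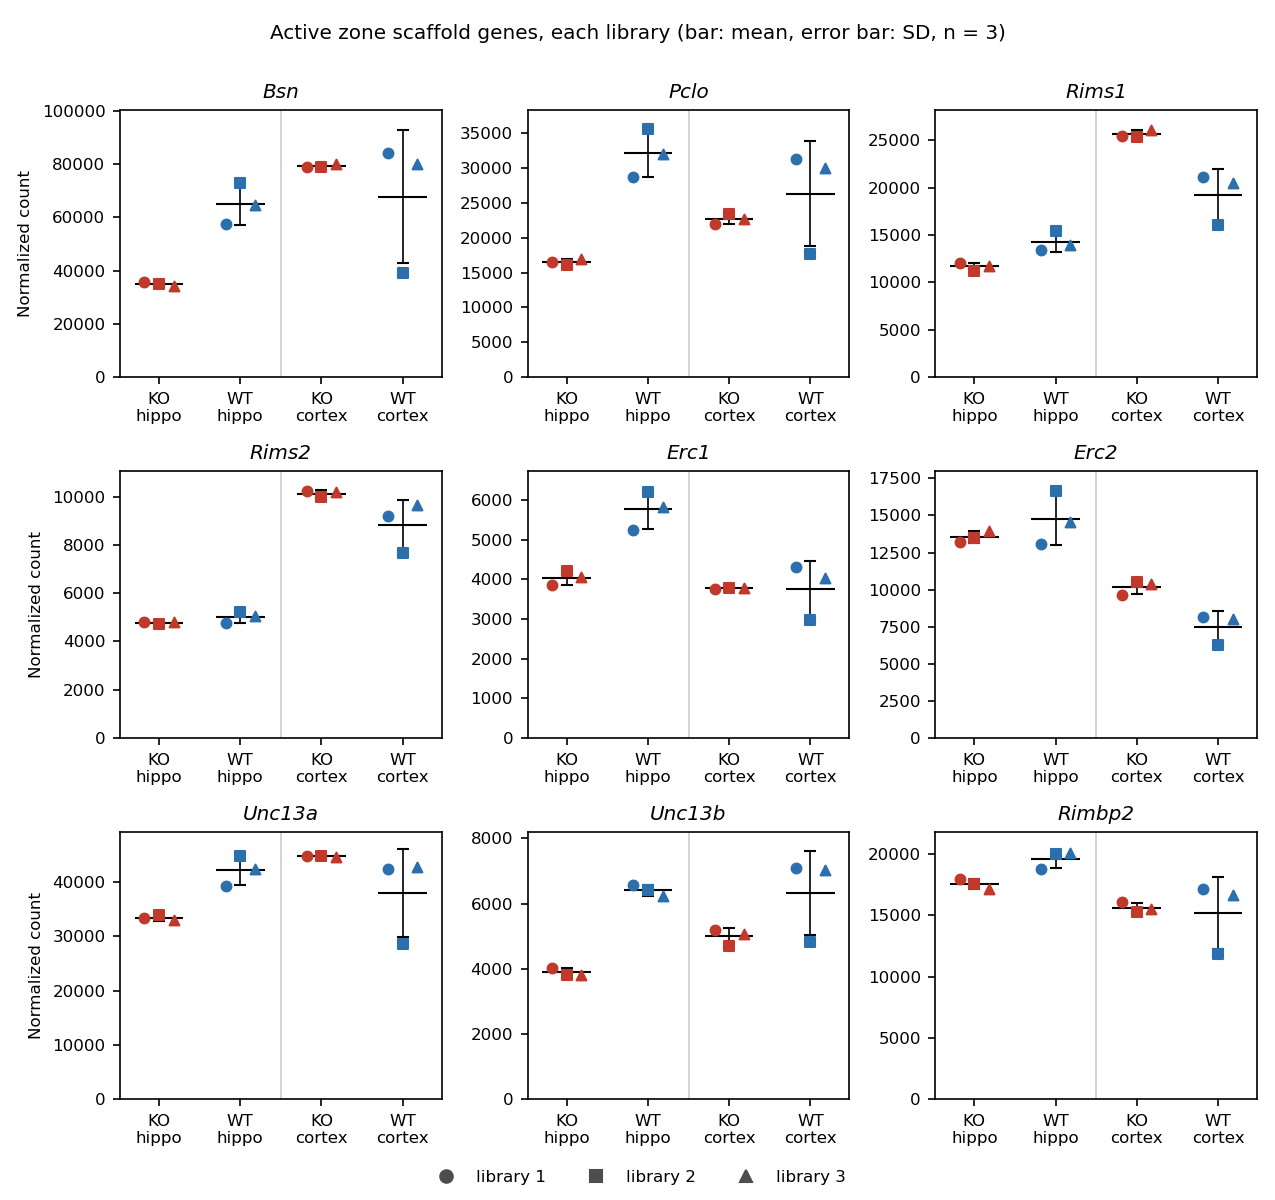
Normalized counts (axis from 0) of the 9 active zone scaffold genes in each of the 12 libraries, with the group mean as a bar and the SD as an error bar (n = 3). Knockout hippocampus libraries lie below wild type without overlap for 7 genes, Rims2 and Erc2 excepted, and wild-type cortex library 2 (square) lies below the other wild-type cortex libraries in every panel.

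The genes of Bassoon and Piccolo, large scaffold proteins of the active zone, had the largest falls of the 9 members in hippocampus. Bsn (ENSMUSG00000032589, chromosome 9, 108096022 to 108190384, minus strand, 15.9 kb of exon) had 35834, 34899 and 34381 normalized counts in knockout hippocampus, against 57403, 73080 and 64674 in wild-type hippocampus. The knockout libraries were tightly grouped and the wild-type libraries were spread, with no overlap. Bsn fell by 0.89 ± 0.08 on the log2 scale (SE, n = 3 each, adjusted p = 0.00028), to 0.541 of the wild-type level. Pclo (ENSMUSG00000061601, chromosome 5, 14514918 to 14863459, plus strand, 22.5 kb of exon) had 16578, 16073 and 16946 normalized counts in knockout and 28781, 35551 and 31987 in wild-type hippocampus. Pclo fell by 0.95 ± 0.07 (SE, adjusted p = 0.000126), to 0.517 of the wild-type level, again with no overlap. Both genes kept their call and direction in hippocampus when any 1 library was left out.

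Munc13-1 and Munc13-2, the vesicle priming factors encoded by Unc13a and Unc13b, both fell in hippocampus. Unc13a (ENSMUSG00000034799, chromosome 8, 71624417 to 71671757, minus strand, 12.6 kb of exon) had 33343, 33974 and 32920 normalized counts in knockout and 39348, 44798 and 42351 in wild type, a log2 fold change of -0.33 ± 0.05 (SE, adjusted p = 0.00372). Unc13b (ENSMUSG00000028456, chromosome 4, 43058953 to 43264871, plus strand, 22.7 kb of exon) had 4029, 3812 and 3810 in knockout and 6568, 6413 and 6219 in wild type. Its log2 fold change was -0.72 ± 0.04 (SE, adjusted p = 4.42e-05), and its coefficient of variation over the wild-type libraries, 2.73%, was the lowest of the 9 members. Unc13a shares 3.92% of its exonic bases with Colgalt1 on the opposite strand, and the labels do not say whether reads were counted by strand.

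Of the ELKS genes, Erc1 fell in hippocampus and Erc2 did not pass the test. Erc1 (ENSMUSG00000030172, chromosome 6, 119570796 to 119848167, minus strand, 16.3 kb of exon), the form that is also made outside the nervous system, had 3848, 4201 and 4046 normalized counts in knockout hippocampus and 5244, 6204 and 5834 in wild type. It fell by 0.51 ± 0.07 on the log2 scale (SE, adjusted p = 0.00143) with no overlap. An antisense gene, Gm44317, covers 11.8% of the exonic bases of Erc1, so part of its reads could belong to either gene. Erc2 (ENSMUSG00000040640, chromosome 14, 27622428 to 28478537, plus strand, 9.73 kb of exon), the neuronal form, had 13202, 13484 and 13965 normalized counts in knockout hippocampus and 13106, 16618 and 14586 in wild type. Here the groups overlapped, and the log2 fold change of -0.12 ± 0.08 did not pass the test (adjusted p = 0.314, 95% interval -0.28 to 0.04). Without wild-type library 1, the lowest of its group, Erc2 was called at -0.20 (adjusted p = 0.0437).

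Among the RIM genes, Rims1 fell and Rims2 did not pass the test. Rims1 (ENSMUSG00000041670, chromosome 1, 22286251 to 22805994, minus strand, 7.36 kb of exon) had 12036, 11249 and 11741 normalized counts in knockout hippocampus and 13382, 15428 and 13944 in wild type, a log2 fold change of -0.29 ± 0.06 (SE, adjusted p = 0.00988). Rims2 (ENSMUSG00000037386, chromosome 15, 39198261 to 39684372, plus strand, 10.4 kb of exon) had 4794, 4709 and 4811 in knockout and 4744, 5238 and 5073 in wild type, with overlap. Its log2 fold change was -0.07 ± 0.05 (adjusted p = 0.282, 95% interval -0.16 to 0.02). Rimbp2, whose protein joins RIM to calcium channels (ENSMUSG00000029420, chromosome 5, 128757791 to 128953486, minus strand, 7.94 kb of exon), had 17945, 17575 and 17155 normalized counts in knockout and 18777, 20004 and 20067 in wild type. Rimbp2 fell by 0.16 ± 0.04 (SE, adjusted p = 0.0262), the smallest of the 7 falls. That call did not hold when any 1 knockout library or wild-type library 3 was left out, with adjusted p from 0.0561 to 0.122.

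The hippocampal log2 fold changes of the members ran with length. Over the 9 members, Spearman's rho between the log2 fold change and exonic length was -0.75, and with the length of the longest annotated coding transcript in its place it was -0.97. These are descriptions over 9 genes measured in the same 6 libraries. The members are long genes: their median exonic length was 12.6 kb, against 4.30 kb for all protein-coding genes tested in hippocampus, and all 9 were longer than that median. By coding transcript, Rims2, Erc2, Rimbp2 and Rims1 lie at 4 to 8 kb, where the other protein-coding genes had a median log2 fold change of -0.03 (quartiles -0.26 and 0.12, n = 4492). At 8 to 12 kb, the bin of Erc1 and Unc13a, the other genes had a median of -0.55 (quartiles -0.76 and -0.32, n = 705). Bsn and Unc13b lie at 12 to 16 kb, where the median was -0.83 (quartiles -0.96 and -0.54, n = 146), and Pclo lies above 16 kb, where it was -0.92 (quartiles -1.08 and -0.66, n = 37). Bsn, Pclo, Unc13b, Erc1 and Unc13a therefore sat within the quartiles of other genes of their length. Rims1, at -0.29, sat just below the lower quartile of its bin.

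**Figure D2:**
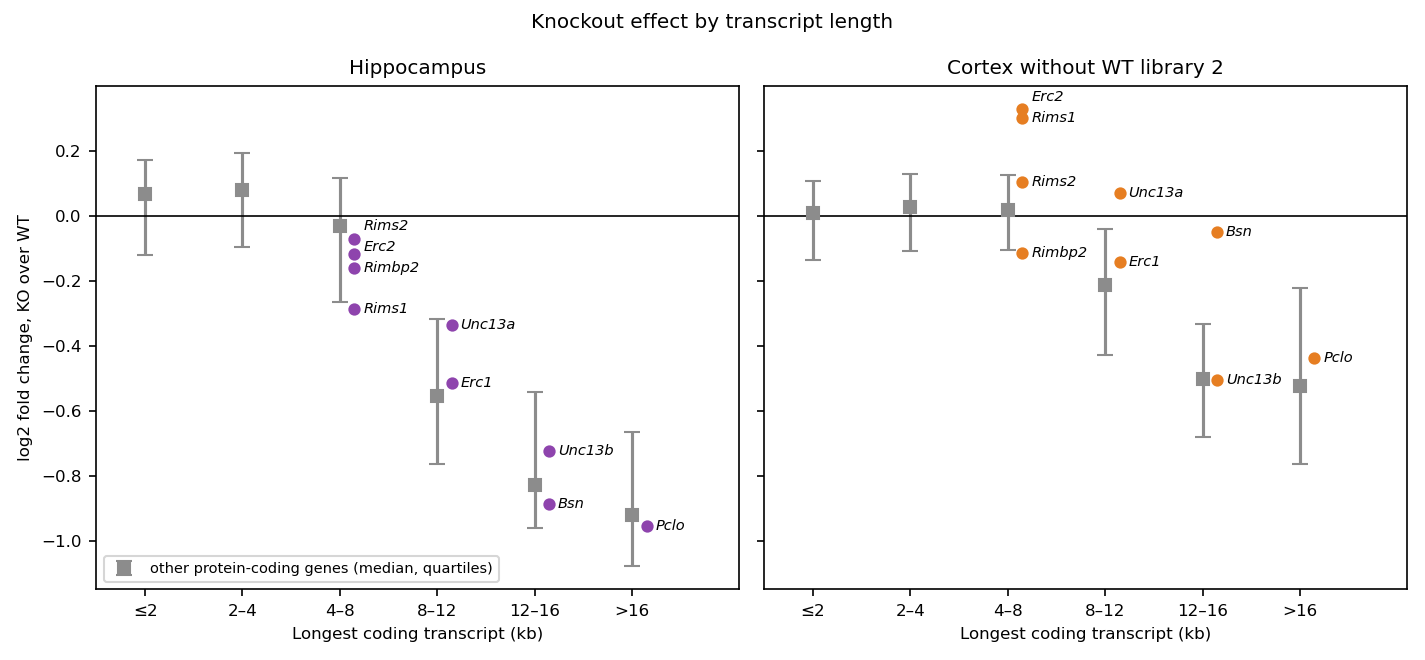
Log2 fold change of knockout over wild type by length of the longest coding transcript (kb, 6 bins), in hippocampus and in cortex without wild-type library 2. Grey squares and bars are the median and quartiles of the other protein-coding genes, coloured points are the scaffold genes; in hippocampus the median goes to -0.92 above 16 kb and Pclo lies beside it, while in cortex Erc2 and Rims1 lie above the upper quartile of their bin.

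Removing the length trend from each library ended most of the hippocampal calls. With the trend along exonic length removed, Bsn at -0.44 (adjusted p = 0.0028), Pclo at -0.34 (adjusted p = 0.0027) and Rims1 at -0.20 (adjusted p = 0.0254) still fell, and Rims2 rose by 0.17 (adjusted p = 0.0154). In that fit 25.6% of all genes tested were called, 12.1% lower and 13.5% higher. Erc1, Erc2, Unc13a, Unc13b and Rimbp2 lay between -0.10 and 0.09 and were not called. With the trend along coding transcript length removed, an alternative chosen after seeing the data, the members ranged from -0.09 to 0.26, no member fell, and Pclo at 0.15 (adjusted p = 0.0221) and Unc13a at 0.26 (adjusted p = 0.0027) were called higher, where 21.8% of all genes tested were called, 10.3% higher and 11.5% lower. The Bsn value was then 0.04 (adjusted p = 0.562). A change in these genes and a change shared by long transcripts cannot be told apart by these fits.

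In cortex, 0 of the 9 members were called by limma over all 6 libraries, where 1.94% of the 21945 genes tested were. At an unadjusted p below 0.05 there were 2, Rims1 and Erc2, a cut at which all genes were not counted. The quasi-likelihood test of edgeR on whole reads recovered from the values called 0, where 446 of 21945 genes were called. DESeq2 on the same reads called 2, again Rims1 and Erc2, where 1609 of 21945 genes were called. The median log2 fold change of the members was 0.20, against -0.01 over all genes tested. Knockout libraries lay above all wild-type libraries for 4 members, Rims1, Rims2, Erc2 and Unc13a, and below them for 0. Over all genes tested, 16% lay above and 12.2% below.

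Erc2 and Rims1 had the highest cortical log2 fold changes. Erc2 had 9644, 10507 and 10365 normalized counts in knockout cortex, against 8133, 6259 and 8048 in wild-type cortex, a log2 fold change of 0.45 ± 0.11 (SE, adjusted p = 0.0929). Rims1 had 25431, 25378 and 26121 in knockout and 21095, 16020 and 20515 in wild type, 0.43 ± 0.11 on the log2 scale (adjusted p = 0.103). Both pairs of groups were apart without overlap, also when wild-type library 2 was set aside. Unc13a had 44777, 44878 and 44561 in knockout and 42425, 28566 and 42740 in wild type, at 0.26 ± 0.15 (adjusted p = 0.404). Rims2 had 10219, 9974 and 10180 in knockout and 9215, 7660 and 9635 in wild type, at 0.20 ± 0.09 (adjusted p = 0.289). For these 2 genes the knockout libraries also lay above every wild-type library, by a small margin over libraries 1 and 3.

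The other 5 members overlapped between the cortical groups. Bsn had 79117, 79114 and 79968 normalized counts in knockout and 84219, 39178 and 80090 in wild type, a log2 fold change of 0.31 ± 0.27 (adjusted p = 0.583). Pclo had 21995, 23382 and 22640 in knockout and 31264, 17672 and 30057 in wild type, at -0.17 ± 0.20 (adjusted p = 0.693). Its knockout values lay between wild-type library 2 and the other 2 wild-type libraries. Unc13b had 5198, 4697 and 5080 in knockout and 7095, 4829 and 7038 in wild type, at -0.32 ± 0.15 (adjusted p = 0.308). Erc1 had 3755, 3785 and 3771 in knockout and 4301, 2965 and 4029 in wild type, at 0.02 ± 0.13 (adjusted p = 0.95). Rimbp2 had 16086, 15310 and 15503 in knockout and 17142, 11822 and 16675 in wild type, at 0.06 ± 0.14 (adjusted p = 0.848). Bsn, Pclo, Erc1 and Rimbp2 share one arrangement, in which all knockout libraries are below wild-type libraries 1 and 3 and above library 2.

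Wild-type cortex library 2 had the lowest value of its group for all 9 members, at 47.7% to 81.3% of the mean of wild-type libraries 1 and 3, and the lowest of all 6 cortex libraries for 8 of them. Over all genes tested it was the lowest of the 6 for 32.7%. Without that library 8 of the 9 members were called, where 21.4% of all genes tested were, 11% higher and 10.4% lower. Rims1 at 0.30 (adjusted p = 0.000108), Erc2 at 0.33 (adjusted p = 0.000764), Rims2 at 0.10 (adjusted p = 0.0425) and Unc13a at 0.07 (adjusted p = 0.0295) rose. Pclo at -0.44 (adjusted p = 5.25e-05), Unc13b at -0.50 (adjusted p = 0.000171), Erc1 at -0.14 (adjusted p = 0.0326) and Rimbp2 at -0.11 (adjusted p = 0.0274) fell. Bsn, at -0.05, was the member not called (adjusted p = 0.195), and the median of the members was -0.05. These values rest on 2 wild-type libraries, and why library 2 differs was not tested.

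Length ran through the cortical values as well. Over the 9 members, rho between log2 fold change and coding transcript length was -0.73 without wild-type library 2 and -0.50 with all 6 libraries. With all 6, the medians of other protein-coding genes were -0.09 up to 2 kb and 0.10 at 4 to 8 kb. They were -0.06 at 8 to 12 kb, -0.29 at 12 to 16 kb and -0.34 above 16 kb. Without wild-type library 2, other protein-coding genes had a median of 0.02 at 4 to 8 kb (quartiles -0.11 and 0.13) and of -0.21 at 8 to 12 kb (quartiles -0.43 and -0.04). The median was -0.50 at 12 to 16 kb (quartiles -0.68 and -0.33) and -0.52 above 16 kb (quartiles -0.76 and -0.22). Rims1 and Erc2 lay above the upper quartile of their bin, Unc13a and Bsn above that of theirs, Pclo, Unc13b, Erc1 and Rims2 within the quartiles, and Rimbp2, at -0.11, at the lower quartile. With the exonic length trend removed over all 6 cortex libraries, Rims1 at 0.36 (adjusted p = 0.0143), Erc2 at 0.41 (adjusted p = 0.00585) and Unc13a at 0.27 (adjusted p = 0.0434) rose, where 5.86% of all genes tested were called and 3.57% rose. With the coding transcript trend removed, an alternative chosen after seeing the data, Bsn at 0.61 (adjusted p = 0.0106) and Pclo at 0.24 (adjusted p = 0.0083) joined Rims1, Erc2 and Unc13a among the genes that rose, where 7.99% of all genes tested were called and 4.63% rose. Both length fits include wild-type library 2, and no length trend was removed without it. Without that library and with no trend removed, Bsn was at -0.05 and not called, and Pclo was called lower at -0.44.

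**Figure D3:**
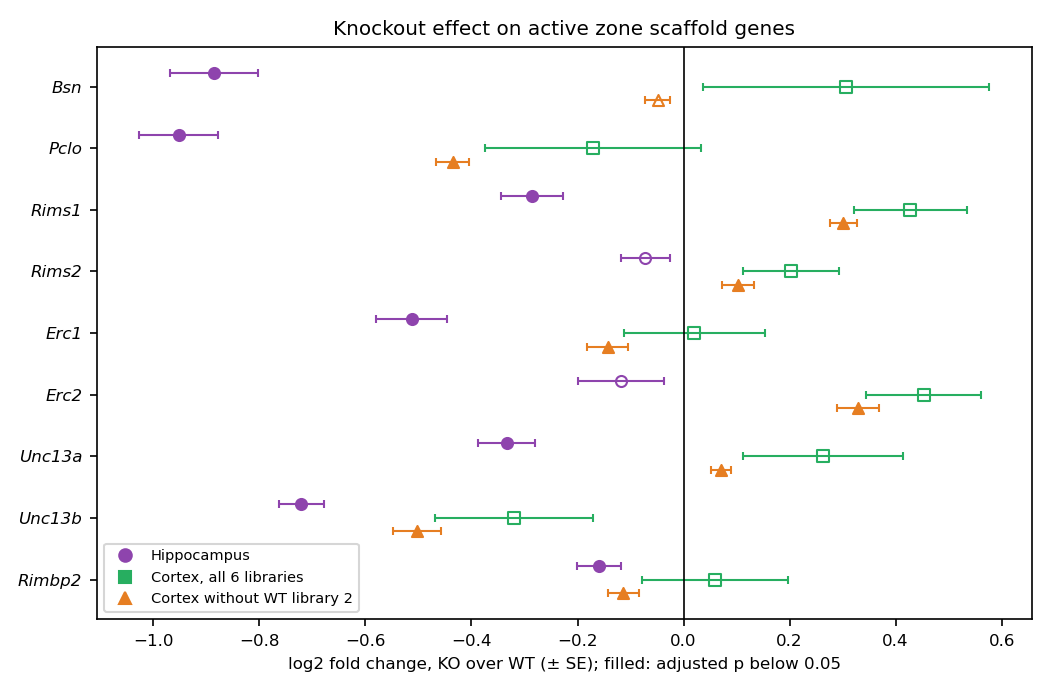
Log2 fold change of knockout over wild type (± SE) for the 9 scaffold genes in hippocampus (circles), in cortex with all 6 libraries (squares) and in cortex without wild-type library 2 (triangles); filled symbols have an adjusted p below 0.05. All hippocampal points are below 0, from -0.95 for Pclo to -0.07 for Rims2, and the cortical points of Rims1 and Erc2 are above 0 with or without library 2.

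The knockout effect differed between the tissues for Rims1. Its difference, hippocampus minus cortex, was -0.71 ± 0.13 on the log2 scale (interaction term of limma over the 12 libraries, adjusted p = 0.0176), where 3.02% of the 21282 genes tested were called and 2.05% were lower in hippocampus. The labels do not say whether hippocampus and cortex libraries share animals, and the fit took them as independent. The other 8 differences were also below 0 and missed the threshold, from -0.22 ± 0.16 for Rimbp2 (adjusted p = 0.414) to -1.19 ± 0.31 for Bsn (adjusted p = 0.063). Without wild-type cortex library 2 the difference was called for 6 members, all lower in hippocampus, where 9.24% of all genes tested were called and 6.18% were lower: Bsn at -0.84, Rims1 at -0.59, Pclo at -0.52, Erc2 at -0.45, Unc13a at -0.41 and Erc1 at -0.37, with adjusted p from 0.000693 to 0.0219. For Rims1 the adjusted p ran from 0.0513 to 0.0585 when knockout cortex library 2 or 3, knockout hippocampus library 2 or 3, or wild-type hippocampus library 3 was left out. It was 0.0624 with the library number as a block within each tissue and 0.0854 with cortex and hippocampus libraries of one genotype and number as a block. With the exonic length trend removed, Bsn at -0.80 (adjusted p = 0.0337) and Rims1 at -0.57 (adjusted p = 0.0037) were called, among 1023 of 21282 genes. With the coding transcript trend removed, Bsn at -0.57 (adjusted p = 0.018) and Rims1 at -0.42 (adjusted p = 0.0018) were called, among 1001 genes. The other members then ran from -0.31 for Erc2 to 0.20 for Unc13b and were not called.

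Levels per kb of exon put the members in order within each tissue. The order holds for merged exons and could differ per kb of coding transcript, which was not computed. Rims2 has 10.4 kb of merged exon and a longest coding transcript of 4.8 kb, and Erc1 has 16.3 and 8.76 kb. In knockout hippocampus Unc13a led with 2647 ± 42 normalized counts per kb (SD, n = 3), ahead of Rimbp2 at 2213 ± 50 and Bsn at 2198 ± 46, which overlapped each other, and in wild-type hippocampus Bsn led with 4082 ± 492, ahead of Unc13a at 3340 ± 216 and Rimbp2 at 2472 ± 92. The lower part of the order was Rims1, Erc2, Pclo, Rims2, Erc1 and Unc13b in both genotypes, where Erc2 and Pclo overlapped in wild type only. Unc13b was the lowest, with 171 ± 6 per kb in knockout and 281 ± 8 in wild-type hippocampus. In knockout cortex Bsn led with 4982 ± 31 per kb, followed by Unc13a at 3544 ± 13 and Rims1 at 3483 ± 56, which overlapped. Wild-type cortex also had Bsn, Unc13a and Rims1 at the top, at 4256 ± 1562, 3003 ± 641 and 2609 ± 377 per kb, with neighbours in that order overlapping. Below them in knockout cortex came Rimbp2 at 1970 ± 51, Erc2 at 1046 ± 48, Pclo at 1010 ± 31 and Rims2 at 974 ± 13, of which Erc2 overlapped Pclo and Pclo overlapped Rims2. In wild-type cortex Rimbp2 at 1917 ± 371 was followed by Pclo at 1172 ± 335, Rims2 at 851 ± 100 and Erc2 at 769 ± 109, again with overlap between Pclo and Rims2 and between Rims2 and Erc2. Erc1 at 232 ± 1 and Unc13b at 219 ± 12 ended the order in knockout cortex, and at 231 ± 43 and 278 ± 57 they ended it in wild-type cortex, where they overlapped.

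Ratios of related members within a library do not depend on how that library was scaled. The pairs were chosen with the values known, and with 3 libraries against 3 an exact two-sided permutation test cannot give a p below 0.1. The Unc13a to Unc13b ratio per kb of exon was 14.9, 16.1 and 15.6 in knockout hippocampus, against 10.8, 12.6 and 12.3 in wild-type hippocampus. In cortex it was 15.5, 17.2 and 15.8 in knockout and 10.8, 10.7 and 10.9 in wild type, where library 2 lay with the others. The mean ratio was 1.31 times the wild-type one in knockout hippocampus and 1.5 times in knockout cortex. The Erc2 to Erc1 ratio was 5.74, 5.37 and 5.77 in knockout and 4.18, 4.48 and 4.18 in wild-type hippocampus, and 4.30, 4.64 and 4.6 in knockout and 3.16, 3.53 and 3.34 in wild-type cortex. Groups did not overlap for either pair in either tissue (exact p = 0.1 in each). In both pairs the denominator is the longer gene.

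The remaining pairs were Bsn with Pclo and Rims1 with Rims2. Bsn to Pclo was 3.05, 3.06 and 2.86 in knockout and 2.81, 2.90 and 2.85 in wild-type hippocampus, with overlap (exact p = 0.2), and 5.07, 4.77 and 4.98 in knockout and 3.80, 3.12 and 3.75 in wild-type cortex, without overlap. Rims1 to Rims2 was 3.54, 3.37 and 3.44 in knockout and 3.98, 4.16 and 3.88 in wild-type hippocampus, so that the knockout ratio was 0.862 of the wild-type one. In cortex that ratio was 3.51, 3.59 and 3.62 in knockout and 3.23, 2.95 and 3.00 in wild type, 1.17 times the wild-type one, and the groups overlapped in neither tissue (exact p = 0.1 in each). All 8 ratios kept their direction when any 1 library was left out.

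**Figure D4:**
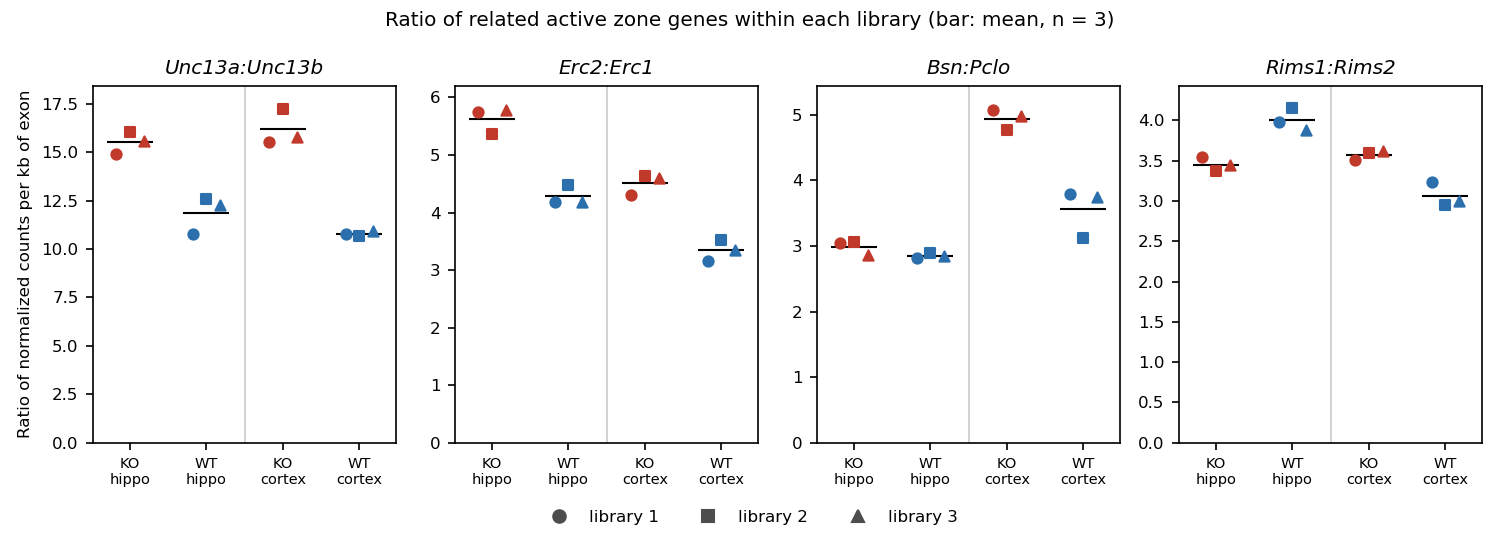
Ratio of normalized counts per kb of exon of 2 related scaffold genes (axis from 0) in each library, with the group mean as a bar (n = 3). Unc13a to Unc13b and Erc2 to Erc1 are higher in every knockout library than in any wild-type library of the same tissue, while Rims1 to Rims2 is lower in knockout hippocampus and higher in knockout cortex.

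Short gene models of the annotation classes TEC and sense intronic, lying inside member introns on the same strand, gave a further readout. There were 11, with 8 inside Pclo, and 4 passed the filter in hippocampus and 3 in cortex. Summed over the 8 Pclo models, knockout hippocampus had 66.4, 95.6 and 119 normalized counts and wild-type hippocampus 214, 187 and 145, without overlap. In cortex the sums were 124, 78.6 and 113 in knockout and 198, 152 and 193 in wild type, where Pclo itself overlapped. Of these cortical sums, Gm42447 alone gave 8.47, 8.28 and 7.49 in knockout and 43.6, 61.1 and 40.2 in wild type. Gm43662 fell by 1.41 ± 0.28 on the log2 scale in hippocampus (adjusted p = 0.0086), and Gm42447 fell by 2.42 ± 0.30 in cortex (adjusted p = 0.0167). These were the only calls, 1 of the 4 models tested in hippocampus and 1 of the 3 tested in cortex. Over all 1220 models of these classes tested in hippocampus the median log2 fold change was -0.30, with 29.8% called lower and 9.02% called higher. Over the 1168 tested in cortex it was -0.28, with 1.80% called lower and 0.342% higher.

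Partners and paralogs of the scaffold moved both ways in hippocampus. Of 19 such genes 4 rose and 6 fell, with a median log2 fold change of -0.01. Beside this list and those below, 14.1% of all genes tested in hippocampus rose and 15.1% fell. In cortex 1.94% were called, and without wild-type library 2 there 11% rose and 10.4% fell. Unc13c, which encodes the third neuronal Munc13 and is made mainly in cerebellum, fell by 0.95 ± 0.08 (adjusted p = 0.000209), with 461 ± 43.5 normalized counts in knockout and 886 ± 21.2 in wild type (SD, n = 3 each). With 8.80 kb of exon, Unc13c kept a value of -0.79 when the exonic length trend was removed. Tspoap1, which encodes RIM-binding protein 1 and has 9.5 kb of exon, fell by 0.31 ± 0.04 (adjusted p = 0.00121), and was at -0.12 without the exonic trend and at 0.03 without the coding transcript trend. Git1, a scaffold that binds Piccolo, rose by 0.33 ± 0.06 and Ctbp1, a partner of Bassoon and Piccolo, by 0.19 ± 0.04 (adjusted p = 0.0073 for both). In cortex 0 of the 19 were called by limma, edgeR or DESeq2, with 4 at an unadjusted p below 0.05 and a median log2 fold change of 0.11, and without wild-type library 2 there were 3 rises and 2 falls.

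More genes of the vesicle fusion machinery rose than fell in hippocampus. Of 23 there, 12 rose and 3 fell, with a median log2 fold change of 0.18 and a median exonic length of 4.93 kb. Rab3b and Rab3a, vesicle GTPases bound by RIM, rose by 0.32 ± 0.05 and 0.25 ± 0.05 (adjusted p = 0.00444 and 0.00576). Stxbp5l, which encodes tomosyn-2, an inhibitor of SNARE assembly, fell by 2.89 ± 0.14 (adjusted p = 2.35e-05), with 642 ± 105 normalized counts in knockout and 4766 ± 689 in wild-type hippocampus. It has 8.52 kb of exon, a bin in which the quartiles of protein-coding genes were -0.44 and 0.04, and its value was -2.75 with the exonic trend removed. Stxbp5, which encodes tomosyn-1 and has 16.5 kb of exon, fell by 0.43 ± 0.07 (adjusted p = 0.00349), and was at 0.04 with either length trend removed. In cortex 2 of the 23 rose, Vamp1 by 0.45 ± 0.06 (adjusted p = 0.0204) and Syt2 by 0.69 ± 0.12 (adjusted p = 0.0424), a vesicle SNARE and a calcium sensor of fast-releasing terminals. Neither call held when any 1 cortex library other than wild-type library 2 was left out, with adjusted p from 0.0718 to 0.2, and without wild-type library 2 there were 14 rises and 3 falls among the 23.

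Calcium channel subunits and adhesion molecules of the terminal divided in hippocampus. Of 10 channel subunits 3 rose and 5 fell. Cacna1e, the pore of R-type channels with 25.2 kb of exon, fell by 1.09 ± 0.07 (adjusted p = 6.9e-05), and Cacna1b, the pore of N-type channels, fell by 0.61 ± 0.06 (adjusted p = 0.000516). The auxiliary subunits Cacnb1 and Cacna2d3 rose by 0.27 ± 0.05 and 0.28 ± 0.07 (adjusted p = 0.00537 and 0.0228). In cortex Cacna2d3 was the 1 subunit that rose, by 0.47 ± 0.05 (adjusted p = 0.0112). Without any 1 cortex library other than wild-type library 2 its adjusted p there was 0.0514 to 0.122, and in hippocampus it was 0.0714 to 0.0872 without wild-type library 3 or knockout library 2 or 3. Without wild-type cortex library 2, 3 of the 10 subunits rose in cortex and 1 fell. Of 6 adhesion genes 1 rose in hippocampus, Nrxn2 by 0.30 ± 0.06 (adjusted p = 0.00932), and 3 fell. Ptprd fell by 0.59 ± 0.04 (adjusted p = 7.19e-05) and Nrxn3 fell by 0.44 ± 0.06 (adjusted p = 0.00135). Ptprd, with 22.8 kb of exon, stood at 0.03 and Nrxn3 at -0.10 with the exonic trend removed. In cortex 0 of the 6 were called by limma, edgeR or DESeq2 with all 6 libraries, with 1 at an unadjusted p below 0.05, and without wild-type library 2 there were 1 rise and 2 falls.

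Pan-neuronal markers moved both ways in hippocampus. Of 10 pan-neuronal markers 5 rose and 1 fell, and their summed level was 272683 to 277185 normalized counts in knockout and 256004 to 296178 in wild type. The 1 that fell was Map2, at -0.78 ± 0.09 (adjusted p = 0.000609), a gene with 16.4 kb of exon. In cortex 1 of the 10 rose with all 6 libraries, where DESeq2 called 3, and 6 rose and 1 fell without wild-type library 2. Markers of other cell types also moved: all 8 microglial markers rose in hippocampus, with sums of 33548 to 34876 in knockout and 23282 to 27839 in wild type, and 6 of 8 oligodendrocyte markers rose there, with sums of 444580 to 515455 in knockout and 408212 to 413767 in wild type. Choroid plexus markers ranged from 9248 to 18460 in knockout hippocampus and from 12732 to 351055 in wild type, with 0 of 8 called by limma, 7 at an unadjusted p below 0.05, 7 called by edgeR and 8 by DESeq2. Of the 22337 genes tested in hippocampus, edgeR called 6682 and DESeq2 6707, and the unadjusted cut was not counted over all genes. In cortex 9 of 10 striatal neuron markers rose, and all 10 without wild-type library 2, with sums of 41611 to 66558 in knockout and 18580 to 19141 in wild type. In hippocampus 2 of these rose and 2 fell, with sums of 14778 to 15542 in knockout and 17578 to 20857 in wild type, lower in knockout without overlap. Oligodendrocyte markers had sums of 385560 to 416913 in knockout cortex and 334921 to 344501 in wild-type cortex, also without overlap. Of the 8, 1 rose there by limma with all 6 libraries, 5 were called by DESeq2, and all 8 rose without wild-type library 2. Of 8 astrocyte markers 3 rose and 1 fell in hippocampus, while in cortex 1 fell with all 6 libraries and 1 rose and 2 fell without wild-type library 2. Of 8 endothelial markers 3 rose in cortex, or 5 with 1 fall without that library, and 0 were called in hippocampus by limma, edgeR or DESeq2, with 1 at an unadjusted p below 0.05. Microglial and choroid plexus markers had 1 rise each in cortex, and 3 and 2 rises without that library. Of 8 cortical markers 2 rose and 1 fell in hippocampus, and 1 rose and 1 fell in cortex, or 4 and 2 without library 2. Of 8 hippocampal markers 3 rose and 2 fell in hippocampus and 2 fell in cortex, where 2 rose and 4 fell without library 2. The part of these cell types in the values of the scaffold genes was not tested.

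Among the other protein-coding genes whose profile over the 12 libraries was most like the mean of the 9 members were Baz1b, Slit3, Celsr3 and Arhgap21, with Pearson's r of 0.995 to 0.996 among 14823 genes compared. Values were centred on the tissue mean, so each profile holds differences within a tissue only, wild-type cortex library 2 among them. In hippocampus their log2 fold changes were -0.44 for Baz1b, -0.86 for Slit3, -0.84 for Celsr3 and -0.52 for Arhgap21. The members' profile holds their hippocampal fall, so the direction of these values follows from how the genes were chosen. These 4 genes have 6.07 to 13.7 kb of exon, all above the median of protein-coding genes.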

How the data were processed

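RNA sequencing of hippocampus and cortex gave 12 libraries, 3 per genotype and tissue. The deposited tables, 1 per tissue, hold a signal that the authors call normalized counts; the submitters' processing notes name STAR, HTSeq, DESeq2 and GRCm38, without versions or roles. In every library 100% of the values were whole multiples of 1 step within 0.001, and dividing by the step gave whole reads. For wild-type cortex libraries 1 and 2 the step lies so near 1 that this reading could not be checked, and their read totals are estimates. Of 55487 rows, 55227 matched the annotation and 260 did not. Columns of other samples numbered 0.

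The genotype test was limma 3.58.1 (R 4.3.3, variance trend), run per tissue on log2(normalized count + 1), a scale that understates the change of low genes, over genes averaging 10 or more, with calls at a Benjamini-Hochberg adjusted p below 0.05 over all genes tested. Since each table has its own scaling, levels were set side by side only inside a tissue, and the tissues were compared by an interaction term. Alternatives used edgeR 4.0.16 and DESeq2 1.42.0 on the recovered reads, other scalings, filters and pseudocounts, each library left out in turn, and length trends removed by lowess with a span of 0.3. Fits were tested on simulated data that held no outlying library. Log2 changes of 0.5 were recovered for 61% in cortex, 67% in hippocampus and 12% by the interaction term. Changes of 1 were recovered for 98%, 96% and 88%. Of the calls, 3.05%, 2.4% and 7.41% were false. Up to 3 reads are possible behind a Tert value of 0, counting error alone considered.

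The members, 4 pathway lists, 9 marker lists and paralog pairs were chosen with earlier results of these data known. Named genes are Tert, the members, up to 2 called genes with the smallest p per list, direction and tissue, and the 5 genes most like the members' mean profile, of which 1 is not reported here. The intronic models Gm43662 and Gm42447 and the marker Map2 were named after their values were seen.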

Additional observations from a re-analysis of the deposited data

Results flagged for a closer look

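The knockout effect differed between hippocampus and cortex, by the interaction term of limma over the 12 libraries, for Rims1 among the scaffold genes. It also differed for 15 of the named genes of the pathway and marker lists. These were named because they were called within a tissue in these same data, so 15 is not a count over the lists. Over all 21282 genes tested, 3.02% were called. Differences are hippocampus minus cortex on the log2 scale. For Rims1 the difference was -0.71 ± 0.13 (adjusted p = 0.0176), with a log2 fold change of -0.29 in hippocampus and 0.43 in cortex. Every knockout library was lower than every wild-type library in hippocampus, and higher in cortex.

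Among the pathway genes, Unc13c differed by -1.06 (adjusted p = 0.0423), Syt2 by -0.64 (adjusted p = 0.0333), Nrxn3 by -0.42 (adjusted p = 0.0378) and Ptprd by -0.41 (adjusted p = 0.021). Among striatal markers the values were -3.25 for Drd2, -2.57 for Syndig1l, -2.20 for Rgs9, -1.78 for Pde10a and -1.64 for Penk. Cortical markers gave -0.63 for Rorb and 0.71 for Fezf2. Hippocampal markers gave 2.08 for C1ql2, 0.69 for Neurod6 and 0.51 for Wfs1. Gfap, an astrocyte marker, differed by 0.57.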

How the results depend on the processing

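Wild-type cortex library 2 and gene length move these results most. Over the leave-one-out fits, genes called ranged from 15 to 4693 in cortex and from 3656 to 7833 in hippocampus. Members called in cortex ranged from 0 to 8 (8 without wild-type library 2), and the cortex member median from -0.049 to 0.27. Members that differ between tissues ranged from 0 to 6. They were 6 without wild-type cortex library 1 or 2, where 1332 of 21206 and 1965 of 21255 genes were called. They were 4 without wild-type cortex library 3, where 923 of 21227 were. Single cortex values ranged from -0.049 to 0.50 for Bsn, -0.14 to 0.13 for Erc1, -0.11 to 0.15 for Rimbp2, -0.062 to 0.26 for Arhgap21, -0.071 to 0.22 for Baz1b, -0.14 to 0.38 for Celsr3 and -0.17 to 0.43 for Slit3, each below 0 only without wild-type library 2.

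With the exonic length trend removed, 1285 genes were called in cortex, and members called were 3 in cortex, 4 in hippocampus and 2 between tissues. Over all genes tested, 5713 of 22337 were called in hippocampus and 1023 of 21282 between tissues. The hippocampal member median was -0.054. Signs turned for Rims2 (0.17), Erc2 (0.087), Unc13a (0.0010), Ptprd (0.027), Stxbp5 (0.038) and Zbtb20 (0.22) in hippocampus, for Rimbp2 in cortex (-0.0057) and for Unc13b between tissues (0.093). With the coding transcript trend removed, 1753 genes were called in cortex, and members called were 5 in cortex, 2 in hippocampus and 2 between tissues. Over all genes tested, 4876 of 22337 were called in hippocampus and 1001 of 21282 between tissues. The hippocampal member median was 0.049. Signs turned in hippocampus for Bsn (0.044), Pclo (0.15), Erc2 (0.049), Unc13a (0.26), Unc13b (0.15), Rimbp2 (0.11), Slc1a2 (0.30), Stxbp5 (0.040), Tspoap1 (0.035) and Zbtb20 (0.77), in cortex for Pclo (0.24), Rimbp2 (-0.013) and Zbtb20 (0.20), and between tissues for Unc13b (0.20) and Rimbp2 (0.12).

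Same-numbered libraries did not deviate together, with correlations of -0.07 to 0.09 between knockout and wild type of a tissue and of -0.09 to 0.06 between cortex and hippocampus of a genotype, so the data give no sign of pairing by number. With the replicate block, 45 genes were called in cortex, and 6015 genes and 6 members in hippocampus, without Rimbp2 (adjusted p = 0.0546). Between tissues 0 members differed, where 110 of 21282 genes were called. The count was also 0 with cortex and hippocampus libraries of one number as the replicate block, chosen after seeing the data, where 216 genes were called. With the replicate block and the exonic trend removed, members called were 2 in cortex and 3 in hippocampus, where 394 of 21945 and 5317 of 22337 genes were. The hippocampal member median was -0.054. The same signs turned as without the block: Rims2 (0.17), Erc2 (0.087), Unc13a (0.0010), Ptprd (0.027), Stxbp5 (0.038), Zbtb20 (0.22), Rimbp2 in cortex (-0.0057) and Unc13b between tissues (0.093).

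Genes called in cortex were 233 with no filter, 86 with no variance trend and 1609 with DESeq2, which called 2 members there. Members that differ between tissues were 3 with library totals, where 1022 of 21285 genes were called, and 4 with quantile normalization, where 1013 of 21282 were. They were 0 with no variance trend (253 of 21282 genes), 3 with edgeR (1046 of 21282) and 6 with DESeq2 (2080 of 21282). The Erc1 cortex value was -0.022 with library totals, -0.010 with quantile normalization, -0.012 with edgeR and -0.00135 with DESeq2, and the Rimbp2 cortex value was -0.015 with quantile normalization. The causes of these shifts were not tested.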
